A study of Mus musculus with 16 samples.

Results

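The genes examined here were 9 listed members, chosen by name as prostaglandin synthesis and receptor genes. Alox5ap and Anxa1 are on the list but have other roles, given below. All 9 were present among the 9614 genes of the expression table, with none lost to a filter on low values. They are Pla2g4a, Ptgs1, Ptgs2, Ptges, Ptges2, Ptges3, Ptger4, Alox5ap and Anxa1. Their mRNA was measured by RNA-seq of polyadenylated RNA (16 libraries) in BMDM, macrophages grown in culture from the bone marrow of 8-week-old male C57BL/6 mice. The 3 WT mice were LysM-Cre:NELF-B wt/wt and the 3 NELF-B KO mice LysM-Cre:NELF-B fl/fl, so that the controls also carried LysM-Cre, a recombinase driven by a gene of myeloid cells. Negative elongation factor (NELF) holds RNA polymerase II near the start of a gene, and NELF-B is a subunit of it. BMDM were left untreated, or given lipopolysaccharide (LPS, 10 ng/ml) for 1 hr, either alone or together with the synthetic glucocorticoid dexamethasone (Dex, 100 nM). Each genotype has a mouse A, a mouse B and a mouse C. Mice A and B gave all 3 treatments (2 untreated libraries per genotype), and mouse C only LPS and LPS + Dex (3 libraries per genotype for each), written WT-A, KO-B and so on.

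Prostaglandins are lipid mediators made from arachidonic acid. Cytosolic phospholipase A2 (Pla2g4a) releases arachidonic acid from membranes, the cyclooxygenases COX-1 (Ptgs1) and COX-2 (Ptgs2) turn it into prostaglandin H2, and prostaglandin E synthases (Ptges, Ptges2 and Ptges3) turn that into prostaglandin E2, which acts on macrophages through receptors such as EP4 (Ptger4). Alox5ap encodes FLAP, which hands arachidonic acid to 5-lipoxygenase for leukotriene synthesis. Anxa1 encodes annexin A1, a protein known for its part in glucocorticoid action. COX-2 is known as the inducible isozyme in macrophages and as a classical target of glucocorticoids, COX-1 as the constitutive isozyme. The comparisons below ask how LPS, Dex and loss of NELF-B bear on the mRNA of each step.

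The libraries held between 25.0 M and 49.7 M reads. Values are log2 CPM, where CPM is the reads of a gene scaled to the depth of its library, and groups are given as mean ± SD. Nelfb mRNA, the target of the knockout, ranged from 5.59 to 6.21 log2 CPM in the 8 WT libraries and from 3.27 to 4.38 in the 8 KO libraries, with no overlap. In LPS-treated BMDM the WT mean was 5.67 ± 0.09 and the KO mean 3.65 ± 0.49 (n = 3 each). The log2 difference was -2.02 (limma adjusted p = 0.105), and it was called in 6 of 14 alternatives, with an adjusted p of 0.00885 to 0.484 over single libraries left out. With mice of the same letter as a block, which is among those 6, the adjusted p was 0.043 (0.00322 untreated and 0.0328 with LPS + Dex, where it was 0.889 and 0.0889 without the block). KO mouse B kept the most Nelfb RNA, at 4.21 to 4.38. Of 9 macrophage markers, 8 were in the table, with a summed level of 6463 to 9570 CPM, and Adgre1 was not. The levels of these 8 were uneven: Csf1r ran from 2627 to 3910 CPM, and Lyz2, the lowest, from 19.7 to 80.3 CPM. None of 15 markers of dendritic, T, B, NK and mast cells was in the table. Of 7 neutrophil markers only S100a8 was, at 5.46 to 41.5 CPM, and 3 of 4 stromal markers summed to 32.7 to 87.3 CPM. In such bulk RNA, fewer cells of a type and less RNA per cell cannot be told apart. The untreated library of WT mouse A stood apart from the rest: its correlation with the others was 0.83 to 0.909, against 0.9235 to 0.9932 among the others. Results that turn on it are therefore also given without it, where the untreated WT level rests on mouse B alone.

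LPS raised the mRNA of Ptgs2 and of the receptor gene Ptger4 in both genotypes, and that of Ptges, the inducible microsomal prostaglandin E synthase, in the KO. These are the inducible cyclooxygenase, a terminal synthase and a receptor of the same lipid. Pla2g4a, Ptgs1, Ptges2, Ptges3, Alox5ap and Anxa1 did not pass the threshold, an adjusted p under 0.1 over all genes and over 1.5-fold in limma. Of 9 members, 2 were called higher in the WT and 3 in the KO, and none lower. Over all genes, LPS called 11.8% higher in WT and 4.04% higher in KO BMDM. For the WT it was 4.19% without the untreated library of WT mouse A.

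**Figure D1:**
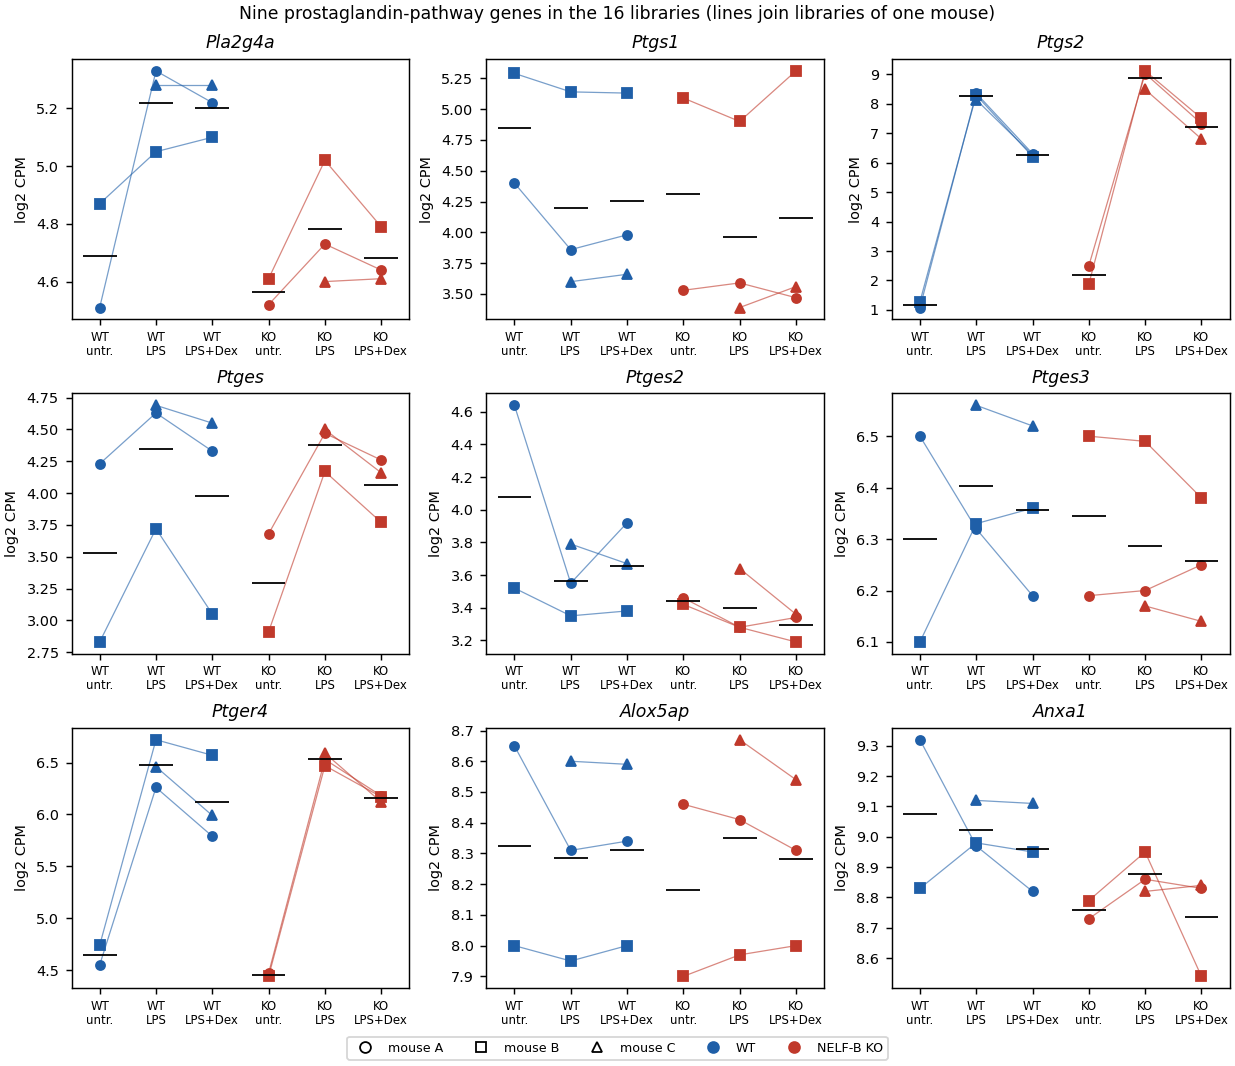
Level of each of the 9 genes in the 16 libraries, in log2 CPM (y axis, range set per gene), by genotype and treatment (x axis). Points are libraries, black bars group means and lines join the libraries of a mouse. Ptgs2 spans 1.08 to 9.12 log2 CPM, while Ptges3 stays between 6.10 and 6.56.

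Ptgs2, at chr1:150100031-150108227 (plus strand, GRCm38), had the lowest level per kb of exon of the 9 members before treatment. Untreated BMDM held 1.08 and 1.28 log2 CPM in WT-A and WT-B, which is 46 and 74 reads, and 2.50 and 1.88 in KO-A and KO-B, which is 221 and 129 reads. After LPS it reached 8.36, 8.30 and 8.14 in WT-A, WT-B and WT-C, and 9.03, 9.12 and 8.49 in the KO mice. No LPS library came near an untreated library. The change was 7.11 in the WT (SE 0.17, limma adjusted p = 3.18e-08), or 138-fold. In the KO it was 6.89 (SE 0.17, limma adjusted p = 3.11e-08), or 119-fold. Leaving out the untreated WT-A library gave a WT change of 6.97, or 126-fold.

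Ptger4 encodes EP4, the prostaglandin E2 receptor that signals through cyclic AMP. It stood at 4.55 and 4.74 log2 CPM in untreated WT-A and WT-B and at 4.47 and 4.44 in the KO mice. LPS took it to 6.26, 6.72 and 6.46 in WT-A, WT-B and WT-C, and to 6.53, 6.47 and 6.59 in the KO mice. Treated and untreated libraries did not overlap. The rise was 1.87 in the WT (SE 0.12, limma adjusted p = 1.75e-05) and 2.07 in the KO (SE 0.12, limma adjusted p = 8.03e-06), or 3.66-fold and 4.20-fold. Leaving out the untreated WT-A library gave a WT rise of 2.09, or 4.26-fold. The gene lies at chr15:5206661-5244187 (minus strand, GRCm38). Its exons share 82 bases with Ttc33 and 1015 with a pseudogene, both on the opposite strand, and since the counting is not stated to use strand, reads there cannot be told apart.

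Ptges levels differed between mice as well as between treatments. WT-A and WT-B held 4.23 and 2.83 log2 CPM untreated and 4.63 and 3.72 after LPS, and WT mouse C 4.69 after LPS. KO-A and KO-B held 3.68 and 2.91 untreated and 4.47 and 4.17 after LPS, and KO mouse C 4.50. LPS values thus overlapped untreated values between WT mice, but each of the 4 mice with both libraries was higher after LPS than before. The change within mice was 1.03 in the KO (SE 0.15, limma adjusted p = 0.00277), or 2.04-fold, and it was not called without the mouse block (limma adjusted p = 0.475). In the WT it was 0.583 (SE 0.15, limma adjusted p = 0.0374), just short of the 0.585 that 1.5-fold makes on the log2 scale, so it was not called. Without the untreated library of WT mouse A the WT change was 0.74, which is above 0.585. The difference between genotypes was 0.45 with all 16 libraries (limma adjusted p = 0.414) and 0.30 without that library.

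A stretch before the transcription start is shown for the 3 genes that LPS raised and, for contrast, for Ptgs1, which it did not. Each is the 250 bases upstream of the start, 5′ to 3′ on the strand of the gene, from RefSeq on GRCm38.p6. RefSeq windows were found for 8 of the 9 members, and for Alox5ap none. They lie at chr1:150099781-150100030 (plus strand) for Ptgs2, chr15:5244188-5244437 (minus) for Ptger4, chr2:30903298-30903547 (minus) for Ptges and chr2:36230176-36230425 (plus) for Ptgs1. The Ptges window starts from the RefSeq start, which is inside the gene as the other annotation draws it (chr2:30889471-30929863). Capitals mark matches to any of 9 motifs searched on both strands.
Ptgs2: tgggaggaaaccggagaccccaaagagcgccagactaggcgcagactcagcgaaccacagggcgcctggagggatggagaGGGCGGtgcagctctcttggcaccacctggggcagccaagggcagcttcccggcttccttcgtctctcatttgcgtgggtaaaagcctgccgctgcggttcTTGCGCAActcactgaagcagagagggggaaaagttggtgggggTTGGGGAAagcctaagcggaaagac
Ptger4: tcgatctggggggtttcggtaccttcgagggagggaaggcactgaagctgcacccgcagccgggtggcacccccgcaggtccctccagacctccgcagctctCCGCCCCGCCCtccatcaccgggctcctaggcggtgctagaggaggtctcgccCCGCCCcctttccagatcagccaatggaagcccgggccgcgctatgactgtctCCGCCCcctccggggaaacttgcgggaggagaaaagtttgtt
Ptges: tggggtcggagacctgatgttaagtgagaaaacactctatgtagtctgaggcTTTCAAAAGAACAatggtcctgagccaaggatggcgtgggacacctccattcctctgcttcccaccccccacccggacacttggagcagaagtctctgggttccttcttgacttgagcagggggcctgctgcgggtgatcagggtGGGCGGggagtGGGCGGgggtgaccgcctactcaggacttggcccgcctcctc
Ptgs1: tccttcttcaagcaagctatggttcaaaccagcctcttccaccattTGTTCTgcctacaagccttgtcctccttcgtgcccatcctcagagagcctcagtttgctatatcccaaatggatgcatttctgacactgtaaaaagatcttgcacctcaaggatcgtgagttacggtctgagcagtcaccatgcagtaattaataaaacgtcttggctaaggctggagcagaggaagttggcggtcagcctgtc

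In the Ptgs2 window, the letters of a C/EBP motif (TTNNGNAA) occurred 69 to 62 bases before the start, where the match reads the same on both strands, and 25 to 18 bases before it. A GC box (GGGCGG) lay 170 to 165 bases before the start. Of the 32851 RefSeq windows of this length, 36.8% held the C/EBP motif and 32.7% the GC box. Ptger4 held 4 GC boxes and no other motif, and 2 of them share a base. Ptges held 2 GC boxes, a C/EBP match and, sharing a base with that match, the short form of the glucocorticoid response element (AGAACA), which 16.1% of all windows held. Ptgs1 held only that same short form, on the other strand. The other 6 motifs were in none of these 4 windows. They were the NF-kB motif, which 3.90% of all windows held, the core CRE spelled TGACGT (6.47%) and the AP-1 motif spelled TGANTCA (6.75%). The remaining ones were the E-box spelled CACGTG (6.02%), the TATA box spelled TATAAA (12.4%) and the whole glucocorticoid response element (0.00913%). These are letters in a window, not sites.

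Among the members that LPS did not raise past the threshold, the WT values of Pla2g4a and Ptges2, like those of Ptgs1, Ptges3, Alox5ap and Anxa1 given after them, depended on the untreated library of WT mouse A. Pla2g4a, the phospholipase that feeds the pathway, held 4.51 and 4.87 log2 CPM in untreated WT-A and WT-B and 5.33, 5.05 and 5.28 after LPS in mice A, B and C. Its WT change was 0.50 (SE 0.14, limma adjusted p = 0.0462), which is 1.41-fold and under the fold threshold. Without that library it was 0.21 (limma adjusted p = 0.136). In the KO, where untreated values were 4.52 and 4.61 and LPS values 4.73, 5.02 and 4.60, the change was 0.28 (limma adjusted p = 0.401). Ptges2, a membrane-associated prostaglandin E synthase, stood at 4.64 in that library and between 3.19 and 3.92 in the other 15. Its WT change of -0.57 (limma adjusted p = 0.0698) became -0.20 (limma adjusted p = 0.458) without the library.

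Ptgs1 stood apart in the B mice under every treatment. In mouse B of the WT it was 5.29 log2 CPM untreated, 5.14 after LPS and 5.13 after LPS + Dex, and in KO mouse B 5.09, 4.90 and 5.31. In the remaining 10 libraries it lay between 3.39 and 4.40. Mouse B was thus above the other mice of its group in 6 of 6 groups, which held for 12.9% of all genes. Ptges, Ptges2 and Alox5ap showed the reverse, with mouse B lowest in 6 of 6 groups, which held for 12.4% of all genes. The B libraries of both genotypes share a run or date mark in their labels, and its part in these levels was not tested. LPS changes of Ptgs1 within mice were -0.34 in the WT (limma adjusted p = 0.0864, 1.27-fold lower) and -0.07 in the KO (limma adjusted p = 1.00). The WT value was -0.18 without the untreated WT-A library (limma adjusted p = 0.430). Exons of Ptgs1 share 148 bases, and those of Alox5ap 189, with a gene model outside the table on the opposite strand.

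Ptges3, which encodes p23, a co-chaperone of HSP90 that also has prostaglandin E synthase activity, ranged only from 6.10 to 6.56 log2 CPM over all libraries. The difference after LPS was 0.02 (WT) and 0.00 (KO). The WT change was 0.27 without the untreated WT-A library (limma adjusted p = 0.0198), still under 1.5-fold. Alox5ap ranged from 7.90 to 8.67 and Anxa1 from 8.54 to 9.32. Their LPS changes lay between -0.18 and 0.10 in the 2 genotypes, and their limma adjusted p-values between 0.138 and 1.00. With the untreated WT-A library left out, the WT change of Anxa1 turned from -0.11 to 0.17 (limma adjusted p = 0.367) and that of Alox5ap went from -0.18 to -0.04 (limma adjusted p = 0.812). Over the 9 members the median LPS change was 0.02 (WT) and 0.10 (KO), beside 0.015 and -0.006 over all genes.

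**Figure D2:**
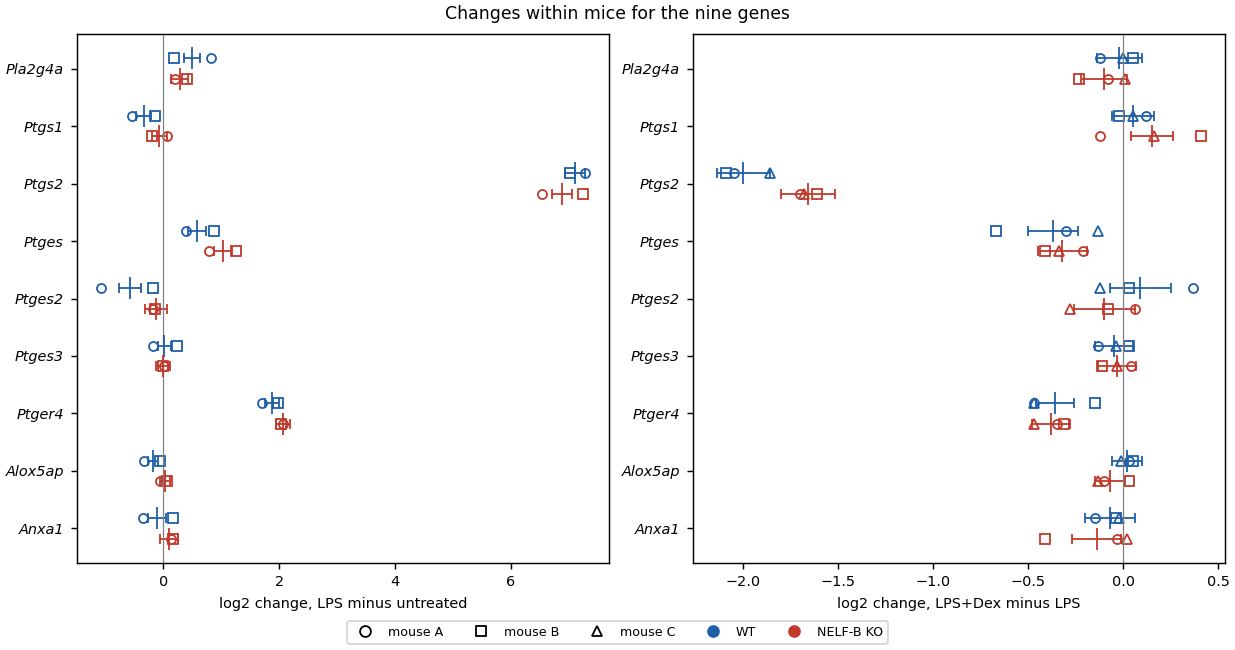
Log2 changes within mice for LPS against untreated (left) and LPS + Dex against LPS (right), for each of the 9 genes (y axis). Open symbols are single mice, vertical ticks the fitted change and bars its SE. Only Ptgs2 lies beyond -1 for Dex, at -2.00 in the WT and -1.66 in the KO.

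Dex added with LPS lowered Ptgs2 in all 6 mice, and Ptgs2 was the only member called for Dex, at an adjusted p under 0.1 and over 1.3-fold. Its levels under LPS + Dex were 6.31, 6.21 and 6.27 log2 CPM in WT-A, WT-B and WT-C, and 7.33, 7.51 and 6.81 in the KO mice. They lay below every LPS library and far above every untreated library. Over all genes, 1.22% were called lower with Dex in the WT and 1.45% in the KO. Without the untreated library of WT mouse A, whose deviation enters the shared estimate of the spread, these were 2.15% and 2.51%, and Ptgs2 was still the only member called.

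Within each mouse Ptgs2 changed by -2.05, -2.09 and -1.86 in WT-A, WT-B and WT-C. In KO-A, KO-B and KO-C it changed by -1.70, -1.61 and -1.68. The fitted change was -2.00 in the WT (SE 0.14, limma adjusted p = 0.000213), or 4.0-fold lower, and -1.66 in the KO (SE 0.14, limma adjusted p = 0.000560), or 3.16-fold lower. The values of the genotypes did not overlap, as was so with KO above WT for 7.69% of all genes. The difference was 0.34 (SE 0.20). Its unadjusted p was 0.132 and its adjusted p 1.00 in limma. From the 12 LPS and LPS + Dex libraries alone, a fit chosen after seeing the data, the difference had an SE of 0.060. Its limma unadjusted p was 9.99e-05 there and its limma adjusted p 0.138. An exact two-sided permutation test over the 3 and 3 mice gave p = 0.10, the smallest it can give. No member was called for a difference between genotypes in the response to Dex or to LPS. Of all genes, 0% were called by limma or by voom, while 27 (Dex) and 396 (LPS) had an unadjusted p under 0.05 in limma.

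The mice with an untreated library allow the rise over untreated to be given in linear CPM. In WT mouse A, LPS added 325 CPM of Ptgs2, and 23.7% of that rise was left with Dex. In WT mouse B it added 313 CPM, of which 22.9% was left. KO-A and KO-B gained 518 and 552 CPM, and 30.0% and 32.4% was left. Both KO mice thus gained more Ptgs2 RNA with LPS and kept a larger share with Dex, over 2 mice per genotype and with no test.

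Ptger4 and Ptges were also lower with Dex in 6 of 6 mice, as were 10.4% of all genes, but by less. Ptger4 changed by -0.47, -0.15 and -0.47 in WT-A, WT-B and WT-C and by -0.35, -0.31 and -0.47 in the KO mice. The fitted changes were -0.365 in the WT (limma adjusted p = 0.203) and -0.375 in the KO (limma adjusted p = 0.163), and 1.3-fold is 0.379 on this scale. With the untreated WT-A library left out, the adjusted p-values were 0.000906 and 0.000639, with the sizes still under 1.3-fold. Ptges changed by -0.30, -0.67 and -0.13 in the WT mice and by -0.21, -0.41 and -0.34 in the KO mice. Its fitted changes were -0.37 (limma adjusted p = 0.384) and -0.32 (limma adjusted p = 0.522), with adjusted p-values of 0.0318 and 0.0521 without that library and the sizes again under 1.3-fold. Of the LPS rise of Ptger4, 59.9% and 86.6% was left with Dex in WT-A and WT-B, and 71.9% and 74.7% in KO-A and KO-B. For Ptges the shares were 21.6% and 19.3% in the WT mice and 68.1% and 57.7% in the KO mice, on a rise of only 5.99 to 10.5 CPM.

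Relative to untreated BMDM, LPS + Dex left Ptgs2 5.11 higher in the WT (limma adjusted p = 3.21e-07) and 5.23 in the KO (limma adjusted p = 2.18e-07), or 34.5-fold and 37.5-fold. Without the untreated WT-A library the WT value was 4.97, or 31.4-fold. Ptger4 stayed 1.51 higher in the WT (limma adjusted p = 8.01e-05) and 1.70 in the KO (limma adjusted p = 3.29e-05). Ptges stood 0.21 above untreated in the WT (limma adjusted p = 0.257) and 0.71 in the KO (limma adjusted p = 0.0197). That KO call was lost without the untreated KO-B library (0.53, limma adjusted p = 0.360) and without the LPS + Dex library of KO-A (adjusted p = 0.101) or KO-B (adjusted p = 0.129), and without the mouse block (adjusted p = 0.909). Over all genes 11.3% and 4.63% were called higher in the WT and KO, and 4.56% in the WT without the untreated library of mouse A. The other 6 members were not called for this contrast in either genotype. Anxa1 and Pla2g4a did not pass for Dex: Anxa1 changed by -0.07 in the WT and -0.14 in the KO, and Pla2g4a by -0.02 and -0.10, with limma adjusted p = 1.00 for each.

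Because longer transcripts collect more reads, levels of different genes were compared as CPM per kb of annotated exon. In untreated WT BMDM, Ptgs1 stood at 2.89 ± 0.63 and Ptgs2 at -1.01 ± 0.14 log2 CPM per kb (n = 2). COX-1 mRNA was thus 14.9 times as abundant (19.6 times by the length of the longest transcript). In the 4 mice with both libraries the order was reversed after LPS, and in the C mice, which have no untreated library, Ptgs2 was also above Ptgs1 after LPS. Ptgs2 was 6.07 ± 0.11 and Ptgs1 2.25 ± 0.83 in the WT (n = 3), a ratio of 14.2 (10.7 by the longest transcript). With LPS + Dex the ratio was still 3.41 in the WT (2.59 by the longest transcript). Its log2 value ran from 0.85 to 2.38 between those WT mice. In the KO the ratio was 25.6 with LPS and 7.30 with LPS + Dex (19.5 and 5.54 by the longest transcript). In untreated KO BMDM the log2 difference, Ptgs2 minus Ptgs1, was -2.37 ± 1.54 (n = 2), or 5.15 times as much Ptgs1, but it ran from -3.45 in KO-B to -1.28 in KO-A.

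**Figure D3:**
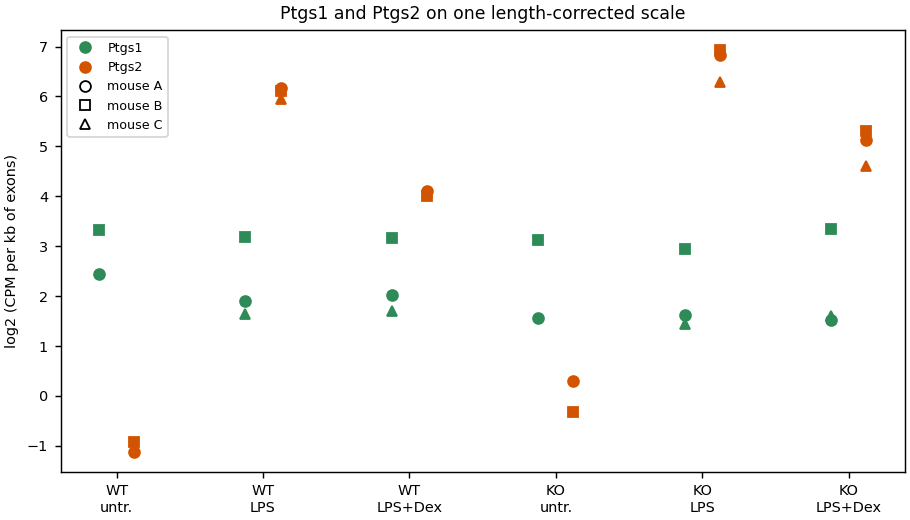
Ptgs1 (green) and Ptgs2 (orange) in each library, in log2 CPM per kb of annotated exon (y axis), by genotype and treatment (x axis), with a symbol for each mouse. Ptgs2 lies below Ptgs1 in all 4 untreated libraries and above it in all 12 others.

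On the same scale the most abundant members in every group were Alox5ap and Anxa1, at 7.82 and 7.53 log2 CPM per kb in untreated WT BMDM, where their ranges overlapped. Ptges3 followed at 5.15. Below Ptgs1, the levels of Pla2g4a (2.01), Ptger4 (1.91), Ptges2 (1.74) and Ptges (1.56) overlapped between neighbours, and Ptgs2 was lowest. After LPS in the WT, Ptgs2 came directly after these most abundant members, above Ptges3 (5.25) and Ptger4 (3.75) with no overlap.

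Between genotypes, no member passed an adjusted p under 0.05 and over 1.5-fold in limma in untreated, LPS-treated or LPS + Dex-treated BMDM, and 0% of all genes did. With the same fold and an unadjusted p under 0.05, Ptgs2 passed with LPS and with LPS + Dex, and no member passed untreated. Over all genes, 37, 811 and 1090 had an unadjusted p under 0.05 in limma in the 3 treatments. Those that also passed the fold were 18 higher and 19 lower untreated, 89 and 250 with LPS, and 107 and 254 with LPS + Dex. Voom on reads recovered from the values called 0, 1 and 3 genes at the adjusted threshold.

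Ptgs2 was higher in every KO library than in every WT library of the same treatment, in each of the 3 treatments, which held for 1.88% of all genes. Untreated KO-A and KO-B were above WT-A and WT-B by 1.42 and 0.59 on the log2 scale. With LPS the differences by letter were 0.68, 0.82 and 0.35 for A, B and C. With LPS + Dex they were 1.03, 1.3 and 0.54. For B that was the largest of the 3 treatments, and for A the untreated difference was larger. For C, which has no untreated library, it was larger than with LPS. The fitted differences were 1.00 untreated (SE 0.41, limma adjusted p = 0.889), 0.62 with LPS (SE 0.18, limma adjusted p = 0.319) and 0.96 with LPS + Dex (SE 0.17, limma adjusted p = 0.172), or 2.00-fold, 1.53-fold and 1.94-fold. Without the untreated WT-A library the untreated difference was 0.90 (limma adjusted p = 0.917). With mice of the same letter as a block, the adjusted p was 0.0905 with LPS and 0.0610 with LPS + Dex. With the mouse as a random effect it was 0.342 and 0.0659.

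Pla2g4a, which lies 139 kb from Ptgs2 on chromosome 1 counted between starts, differed in the other direction in treated cells. With LPS it was 5.33, 5.05 and 5.28 log2 CPM in WT-A, WT-B and WT-C and 4.73, 5.02 and 4.60 in the KO mice. With LPS + Dex it was 5.22, 5.10 and 5.28 in the WT mice and 4.64, 4.79 and 4.61 in the KO mice. The KO libraries lay below the WT libraries in both treatments, by 0.03 for the B mice with LPS. The fitted differences were -0.44 (SE 0.14, limma unadjusted p = 0.0153, adjusted p = 0.381) and -0.52 (SE 0.09, limma unadjusted p = 0.000906, adjusted p = 0.172), or 1.35-fold and 1.43-fold lower. With the block they had limma adjusted p-values of 0.192 and 0.0668. Untreated values of the genotypes overlapped.

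**Figure D4:**
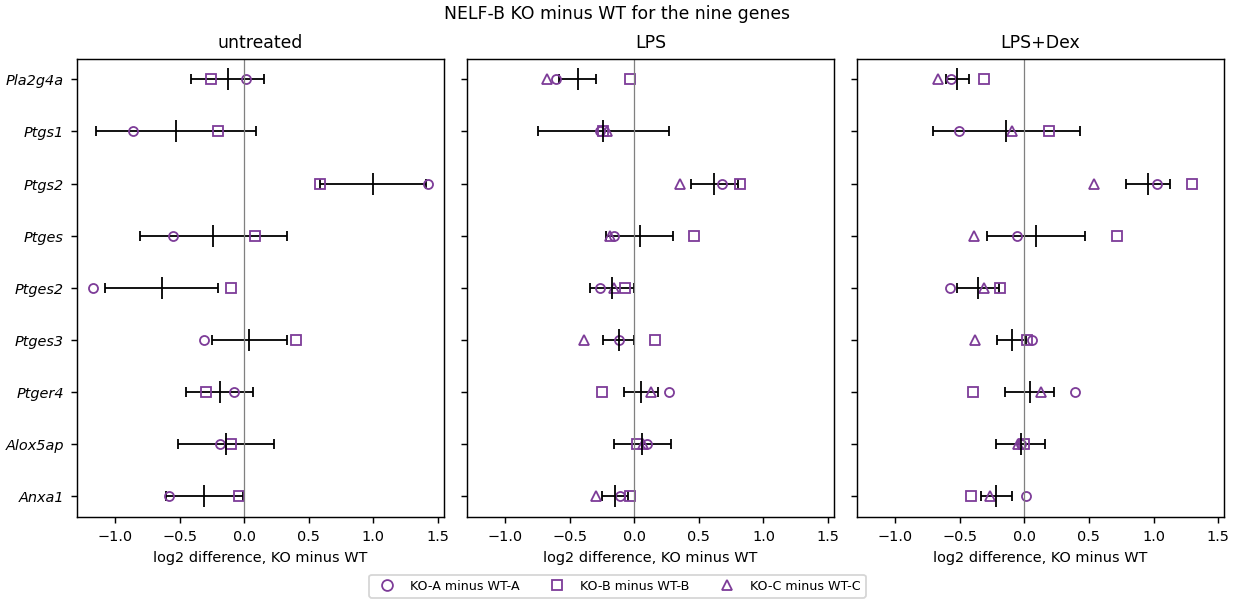
Log2 difference, KO minus WT (x axis), for each of the 9 genes in the 3 treatments. Open symbols compare mice of the same letter, ticks are fitted differences and bars their SE. Ptgs2 lies right of 0 for every letter in every treatment, from 0.35 to 1.42, with the same mice recurring across treatments.

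The other members did not separate the genotypes throughout. Besides Ptgs2 above and Pla2g4a below, Anxa1 was lower in every KO than in every WT library with LPS, and Ptges2 with LPS + Dex. The differences were -0.15 for Anxa1 (limma adjusted p = 0.825) and -0.36 for Ptges2 (limma adjusted p = 0.445). Over all genes, KO libraries lay wholly above WT libraries for 5.91% with LPS and 8.93% with LPS + Dex, and wholly below for 7.82% and 8.83%. In untreated BMDM, with 2 libraries each, Ptgs2 lay wholly above and Ptges2, Ptger4 and Anxa1 wholly below, beside 15.7% and 13.8% of all genes. Ptger4 differed between genotypes by only 0.05 with LPS and 0.04 with LPS + Dex, and Ptges by 0.04 and 0.09.

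Of 76 other eicosanoid genes on 7 lists, 46 were in the table. Not in the table used here were 6 of 8 other prostanoid receptor genes (Ptger2, Ptger3, Ptgdr, Ptgdr2, Ptgfr and Tbxa2r), the prostaglandin D2 and prostacyclin synthase genes Ptgds and Ptgis, the transporter gene Slco2a1, both leukotriene B4 receptor genes (Ltb4r1 and Ltb4r2), Alox12, Alox15 and the antisense gene Ptgs2os. LPS changed 8 of the 46 in the WT (4 higher and 4 lower), or 17.4%, beside 20.9% of all genes in either direction. In the KO it changed 0, where 3 had an unadjusted p under 0.05 in limma and 388 of the 9614 genes were called higher and 204 lower. The median of the 46 changes was -0.03 (WT) and -0.02 (KO).

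All of these 8 WT calls were lost without the untreated library of WT mouse A. By list, 3 of 14 genes of arachidonate release and handling were called (Acsl1 and Acsl4, which activate fatty acids, higher, and Pla2g16, a phospholipase, lower). Of 7 other prostanoid synthases 2 were called lower (Cbr3 and Fam213b), of 8 leukotriene genes 1 lower (Ltc4s, leukotriene C4 synthase), and of 11 annexin and formyl peptide receptor genes 2 higher (Fpr1 and Fpr2). Of 2 other receptors and 4 genes of transport and breakdown, none was called. Fam213b stood at 7.41 log2 CPM in that library and 5.76 in untreated WT mouse B. Its change was -1.12 with the library (limma adjusted p = 0.0811) and -0.07 without it (limma adjusted p = 0.664). Fpr1, a receptor gene for formylated peptides and annexin A1 peptides, changed by 0.70 with the library (limma adjusted p = 0.00170) and 0.57 without it (limma adjusted p = 0.000188), the latter being 1.48-fold and so under the fold threshold.

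**Figure D5:**
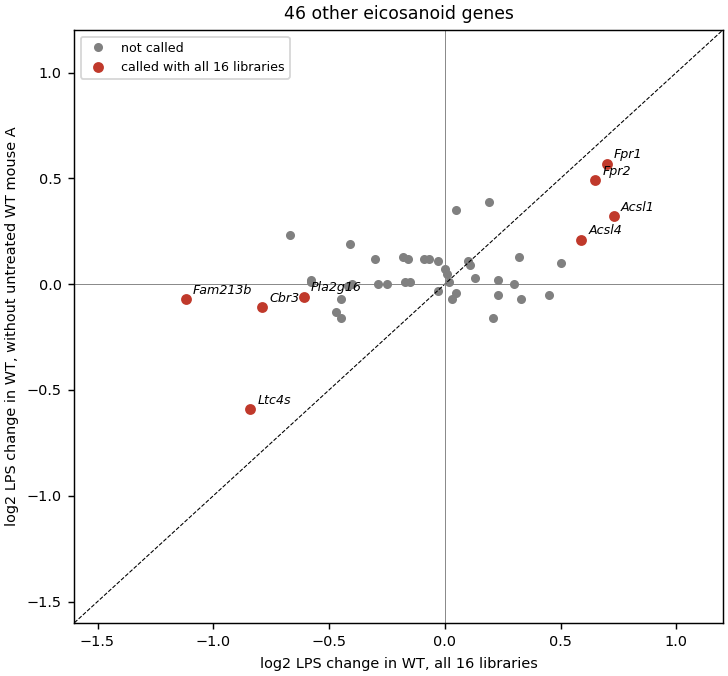
Log2 LPS change in the WT for the 46 other eicosanoid genes, from all 16 libraries (x axis) and without the untreated library of WT mouse A (y axis). Red points are the 8 genes called with all libraries. Fam213b moves from -1.12 to -0.07, while Fpr1 (0.70 and 0.57) and Ltc4s (-0.84 and -0.59) stay nearer to the dashed line of equal values.

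Dex changed 0 of the 46 in either genotype in limma, with 1 at an unadjusted p under 0.05 in the WT and 2 in the KO. Voom called 1 in the KO. Few of the 9614 genes were called for Dex, with 132 higher and 117 lower in the WT and 151 and 139 in the KO. The count of 0 is thus no result about these 46. LPS + Dex against untreated changed 7 of the 46 in the WT (3 higher and 4 lower), or 15.2%, beside 19.6% of all genes. In the KO it changed 0, where 4 had an unadjusted p under 0.05 in limma and 445 of the 9614 genes were called higher and 193 lower. The 7 in the WT were Acsl4, Fpr1, Fpr2, Akr1b3, Fam213b, Ltc4s and Pla2g16. Of these only Ltc4s was called without the untreated library of WT mouse A, at -0.69 (limma adjusted p = 0.0548). Between genotypes 0 were called in each treatment, as were 0% of all genes.

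Ptgir, the prostacyclin receptor gene, is named after its values were seen, for its lower level with Dex in 6 of 6 mice. It changed with Dex by -0.30, -0.61 and -0.33 in WT-A, WT-B and WT-C and by -0.57, -0.41 and -0.56 in the KO mice. The fitted changes were -0.41 in the WT (limma adjusted p = 0.267) and -0.51 in the KO (limma adjusted p = 0.101). Without the untreated library of WT mouse A, both were called, at adjusted p-values of 0.000968 and 0.000139.

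The genes whose levels ran most like those of Ptgs2 over the 16 libraries were Il1b, which encodes interleukin-1 beta (Pearson r = 0.989), the transcription factor gene Irf1 (r = 0.987) and the kinase gene Pim1 (r = 0.986). For Ptger4 they were Zfp36 (r = 0.985), which encodes an mRNA-destabilising protein, Il1b (r = 0.977) and Ppp1r15a (r = 0.976). For Ptgs1 they included Clstn1 (r = 0.979) and Asb2 (r = 0.970). The libraries are not independent, since each mouse gave 2 or 3, and these values are descriptions only.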

How the data were processed

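RNA-seq of BMDM from 6 mice gave 16 libraries. The authors mapped 50 bp paired reads to mm10 in CLC Bio Genomic Workbench, took for each gene the reads that matched its exons uniquely, applied edgeR (weighted trimmed mean scaling), and deposited the result as log2 CPM. CASAVA 1.8, FastQC and edgeR are named in the submitters' processing notes. The filter that left 9614 genes and the use of strand are not given in the sources used here. The 18 columns of the authors' own p-values and FDR were not used.

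All tests used limma 3.58.1 in R 4.3.3 (lmFit, then eBayes with a trend) on those values, and p-values were adjusted (Benjamini-Hochberg) over all 9614 genes. No pseudocount or filter was added. LPS and Dex effects came from all 16 libraries with the mouse as a block, and KO against WT from the libraries of that treatment. Thresholds were an adjusted p under 0.1 with over 1.5-fold (LPS, and LPS + Dex against untreated) or 1.3-fold (Dex), 0.05 with 1.5-fold (genotype) and 0.05 (difference in response). Pairing comes from mouse numbers in the labels: deviations from the group mean correlated between libraries of a mouse (0.185 to 0.939 across genes). Genotypes were paired by letter only as an alternative (r 0.351 to 0.76). Labels of mice B and C, not of A, share a run or date mark between genotypes. P-values of KO against WT measure the spread of levels between these mice. Those of LPS, Dex and the difference in response measure how changes within a mouse vary, pooled over both genotypes.

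The named genes were the 9 members, Nelfb, other eicosanoid genes called or absent, and the 3 genes most correlated with Ptgs2, Ptger4 and Ptgs1. Some items are not reported here. Members, lists and motifs were chosen with earlier results of these data known. Reads were recovered from the steps of the values (100% of values under 3 CPM were whole within 0.1 read); above that they are rounded estimates. Lengths come from an annotation of GRCm38, the assembly mm10 names, which had 95.81% of the genes. Alternatives were no block, other libraries, centring, a filter (mean log2 CPM above 1), log2(CPM + 1), voom on the recovered reads and each library left out. Fits for Dex in the WT and for KO against WT with LPS + Dex were tested on simulated data, with the outcome not reported here. The simulated spread came from treated libraries only, and the LPS contrasts were not covered. Tables and figures used numpy 2.4.6, pandas 2.3.3, Python 3.11.15 and matplotlib 3.10.9.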

Additional observations from a re-analysis of the deposited data

How the results depend on the processing

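Ptgs2 and Ptger4 were called for LPS, and for LPS + Dex against untreated, in both genotypes under all 23 alternatives each, and Ptgs2 for Dex under all 24. Of 2007 alternatives to the 99 results of the members, 1887 kept the direction and the side of the threshold, 90 changed sign without passing in either, 5 lost a call, 24 gained one and 1 was called in the other direction. Without the mouse block, Ptges lost its KO call for LPS (1.09, limma adjusted p = 0.475) and for LPS + Dex (0.77, limma adjusted p = 0.909).

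Leaving out each library in turn, the number of the 9 members called ranged from 2 to 4 for LPS in the WT, 2 to 4 for LPS + Dex against untreated in the WT, 1 to 2 for Dex in the WT (Ptger4 without WT-B LPS + Dex), 0 to 1 for KO against WT untreated and 0 to 8 for the genotype difference in the LPS response. Without the untreated library of WT mouse B, where that of mouse A stands alone, 4 members were called for LPS and for LPS + Dex in the WT, 1 (Ptges2) for KO against WT and 8 for the difference in LPS response, among them Ptges3, reversed from -0.02 to 0.22 (over single libraries left out, -0.27 to 0.22). Of all genes, 51.8%, 51.6%, 40.6% and 73.9% were then called for these 4 comparisons, so the member counts are no result about the members. For LPS in the WT, 4 were also called without WT-B LPS or WT-B LPS + Dex. Over all genes that comparison called 1738 higher and 1488 lower without WT-B LPS. Without WT-B LPS + Dex it called 1315 and 1087, beside 1132 and 876 with all libraries. With an unadjusted p and the same fold, KO against WT called 1 member (Ptgs2) with LPS and 1 with LPS + Dex. That rule called 89 genes higher and 250 lower with LPS, and 107 and 254 with LPS + Dex. The mice of a letter as a block called no member.

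Of the 46 other eicosanoid genes, the number called for LPS in the WT was 8, 5 at an adjusted p under 0.05, 5 without the block, 1 from WT libraries alone and 0 to 22 with a library left out (0 without the untreated library of mouse A, 22 without that of B). For Dex it was 0, and 0 to 1 in the WT and 0 to 2 in the KO with a library left out. For Dex, the 12 LPS and LPS + Dex libraries alone, a fit chosen after seeing the data, called 229 of all genes higher and 209 lower in the WT. In the KO this fit called 266 and 245. Of the 46 it called 1 in the WT (Ptgir) and 2 in the KO (Ptgir and Acsl1). KO libraries alone called 2 of the 46, beside 258 of all genes higher and 236 lower. Centring, log2(CPM + 1) and voom called 1 each in the KO, beside 152 and 141, 152 and 147, and 156 and 146 of all genes. For LPS in the KO it was 0 to 1.

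Over all genes, LPS in the WT gave 1132 higher and 876 lower, 893 and 1261 with libraries centred on their median gene, 403 and 202 without the untreated library of WT mouse A, and 2648 and 2331 without that of WT mouse B. At an adjusted p under 0.05, LPS in the WT gave 590 higher and 292 lower. It gave 578 and 302 without the block, and 328 and 104 from WT libraries alone. Dex gave 132 higher and 117 lower in the WT and 151 and 139 in the KO, and without the block 64 and 31, and 80 and 43. With 2 untreated mice per genotype, levels and differences there are the least certain.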
